A study of Mus musculus with 3 samples.

Results

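The genes of the cytosolic ribosomal proteins were followed through mesenchymal cells of the mouse sciatic nerve before and after injury. They were taken by symbol: every feature starting with Rpl or Rps and a digit, together with Rplp0, Rplp1, Rplp2 and Rpsa, leaving out names with -ps and the Rps6k kinases. This gave 93 of the 53380 features. Of these, 77 encode the core proteins (46 of the large and 31 of the small subunit), 13 are paralogs or expressed copies of a core gene, 2 are processed copies of Rps3a1, and 1, Rps19bp1, encodes a protein that binds Rps19 and is not part of the ribosome. Fau and Rack1 also encode proteins of the small subunit, but their symbols fall outside the rule, and they are described with the partner genes.

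Single-cell RNA sequencing was done on cells sorted for TdTomato. In every library the mice carried Pdgfrb-cre/ERT2, a tamoxifen-inducible Cre, and the Cre-dependent R26-TomatoLSL reporter, so the intact nerve shares the labelling with the injured ones. The 3 libraries were intact nerve, the nerve bridge (the tissue that forms between the stumps) at day 7 after injury and the bridge at day 21, with 1 library in each group and nerves pooled within it. The labels used here state neither age nor sex. Pdgfrb is also active in pericytes and vascular smooth muscle, so the sort can hold cells of vessel walls. Only the suspension from uninjured nerve was cleared of myelin with magnetic beads. Bead step, library and time therefore cannot be told apart, and no test between the libraries was possible.

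The authors' metadata gave 7234 of the 14703 barcodes 1 of 6 classes, and these annotated cells numbered 1343 in intact nerve, 1780 at day 7 and 4111 at day 21. The 3 layer classes are endoneurial (MES_ENDO, among the axons), epineurial (MES_EPI, the outer sheath) and perineurial (MES_PERI, the barrier around each bundle). MES_DIV holds dividing cells, and the labels do not spell out MES_DIFF and MES_EPI-diff. MES_ENDO and MES_EPI at day 7 were highest in their own layer's markers among the 3 layers' lists. The summed perineurial markers of MES_PERI were 5421 CPM in intact nerve, 756 CPM at day 7 and 2882 CPM at day 21. At day 7 this class held more endoneurial markers, 864 CPM, than perineurial ones, while the other classes held at most 239 CPM of perineurial markers. The median cell held 5667 UMIs (unique molecular identifiers, 1 per captured RNA molecule) in intact nerve, 19316 at day 7 and 7442 at day 21. Annotated cells of any pair of libraries shared at most 2 barcodes.

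A ribosome is built from ribosomal RNA, transcribed in the nucleolus, and about one protein from each of these genes, so cells normally make the proteins in matched amounts. Their mRNAs are short and among the most abundant of the cell. Many begin with a run of pyrimidines at the cap, the 5′ terminal oligopyrimidine tract, through which mTOR signalling controls their translation. That control acts on translation, and mRNA levels such as those measured here do not report it. Rplp0, Rplp1 and Rplp2 form the stalk that recruits translation factors, Rpsa sits on the small subunit and is also known as the laminin receptor precursor, and Rps27a is made as a fusion with ubiquitin. Some paralogs replace a core protein in part of the ribosomes, Rpl22l1 for Rpl22 and Rps27l for Rps27 among them.

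The start of the transcript is the stretch of these genes that their shared control is known for, so it is shown for the 8 members that the results below turn on. Sequences are from RefSeq on GRCm38.p6, 5′ to 3′ on the gene's strand, 15 bases before to 15 bases from the annotated start. Capitals mark the longest run of C and T found between 20 bases before and 15 bases after the start. They lie at chr5:115559452-115559481 (Rplp0, plus strand), chr3:90213634-90213663 (Rps27, minus strand), chr9:66946071-66946100 (Rps27l, plus strand), chr3:28805493-28805522 (Rpl22l1, plus strand), chr16:33056467-33056496 (Rpl35a, plus strand), chr7:109519180-109519209 (Rpl27a, plus strand), chr16:55966260-55966289 (Rpl24, plus strand) and chr12:69184053-69184082 (Rpl36al, minus strand).
Rplp0: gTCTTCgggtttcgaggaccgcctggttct
Rps27: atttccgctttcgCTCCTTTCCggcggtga
Rps27l: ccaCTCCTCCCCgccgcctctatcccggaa
Rpl22l1: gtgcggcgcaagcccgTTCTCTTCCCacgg
Rpl35a: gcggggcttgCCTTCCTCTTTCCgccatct
Rpl27a: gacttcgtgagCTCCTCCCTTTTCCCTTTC
Rpl24: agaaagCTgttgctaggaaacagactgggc
Rpl36al: caTTCCCgtcgctcaggttcagttccgact
The run was 19 bases long in Rpl27a, where it reaches the end of the window, 13 in Rpl35a, 10 in Rpl22l1, 9 in both Rps27 and Rps27l, 5 in Rplp0 and Rpl36al, and 2 in Rpl24. The annotated start can differ from the start used in these cells, so a short run says only that the letters are not in this window.

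A RefSeq promoter was matched to 68 of the 93 members. A run of at least 8 pyrimidines stood in this window in 30 of the 68 (44.1%), against 16.6% of 27025 genes with a promoter. Where a gene has several annotated starts, the one with the longest run was taken, for members and all genes alike. Short motifs were searched on both strands from 250 bases before to 50 bases after the start, and none of them contains another. CCGGAAG, the core that ETS factors bind, was found in 38.2% of the members and 9.93% of all genes. AAGATGGC, a form of the YY1 site, was in 8.82% against 3.19%, and GGGCGG, the Sp1 box, was in 60.3% against 38.2%. TATAAA (11.8% against 15.7%) and CCAAT (30.9% against 41.1%) were not more frequent in the members. The median log2 ratio at day 7 against intact nerve was 0.36 over the 29 members with a run of at least 8 and 0.26 over the 35 with a shorter run, and at day 21 it was -0.15 and -0.13. For day 21 against day 7 the medians were -0.47 and -0.43, and the difference between these groups of members was not tested.

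Over all annotated cells, ribosomal protein genes held 15.4% of the UMIs in intact nerve, 18.6% at day 7 and 13.9% at day 21. Day 7 was the highest of the 3 libraries and day 21 the lowest. Counting also the barcodes that have no class, it was 14.4%, 18.5% and 13.4%. As log2 ratios of the summed CPM (counts scaled to 1e+06 UMIs of the cells summed), day 7 against intact nerve was 0.28 (95% interval 0.28 to 0.28), day 21 against intact nerve -0.14 (-0.15 to -0.14) and day 21 against day 7 -0.42 (-0.43 to -0.42). These intervals cover counting error only. The spread between animals cannot be seen with 1 library a group. Large and small subunit genes kept step: at day 7 against intact nerve their summed ratios were 0.26 and 0.30, and at day 21 against day 7 both were near the whole, -0.42 and -0.43.

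The number of ribosomal protein UMIs in the median cell was 808 in intact nerve, 3635 at day 7 and 977 at day 21. The median of all UMIs per cell was likewise highest at day 7. Nuclear and mitochondrial RNA were lowest at day 7. Malat1, a long non-coding RNA held in the nucleus, was at 36489 CPM in intact nerve, 12128 CPM at day 7 and 22602 CPM at day 21, and mitochondrial genes held 1.72%, 0.97% and 2.14% of UMIs. Among cells with Malat1 under 2% of their UMIs, the ribosomal protein share was 18.4% in intact nerve (441 cells), 19.2% at day 7 (1371 cells) and 15.1% at day 21 (2141 cells). The ratio of day 7 to intact nerve in those cells was 0.055, against 0.28 in all cells, whereas day 21 against day 7 was -0.35. In cells of 5000 to 20000 UMIs the ratio of day 7 to intact nerve was 0.18, and as an equal mean of the 3 layer classes 0.43. Malat1 and the ribosomal protein genes are counted in the same total, and the part of RNA quality in the difference was not tested.

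**Figure D1:**
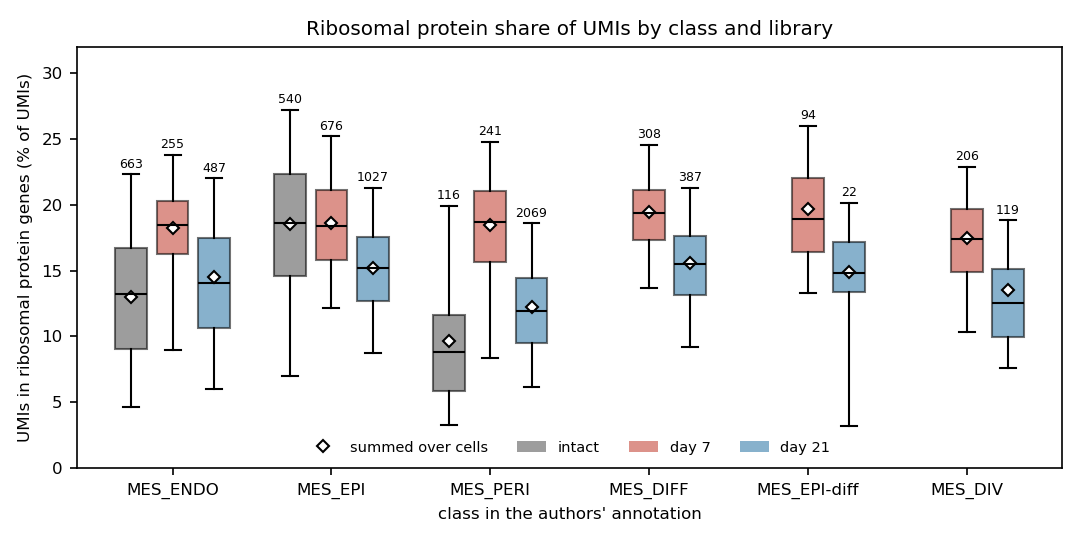
Share of UMIs in ribosomal protein genes (y axis, percent of a cell's UMIs) by class (x axis) and library (grey intact, red day 7, blue day 21). Boxes span the middle 50% of cells with the median, whiskers run from the 5th to the 95th percentile, diamonds are the share in the summed UMIs, numbers are cells, and classes under 20 cells are left out. The 3 layer classes are spread from 9.61% to 18.5% in intact nerve and lie within 18.3% to 18.6% at day 7.

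The difference between libraries depended on the layer. In intact nerve, ribosomal protein genes held 18.5% of UMIs in epineurial cells, 12.9% in endoneurial cells and 9.61% in perineurial cells. At day 7 the 3 shares were 18.6%, 18.3% and 18.5%. At day 21 they were 15.2%, 14.5% and 12.2%. The layers were thus spread in the intact nerve, lay together at day 7, and stood in the intact order but closer together at day 21. MES_DIFF cells were at 19.5% at day 7 and 15.6% at day 21, and MES_EPI-diff cells at 19.6% (94 cells) and 14.9% (22 cells), in each library a little above the layer classes or among them.

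Within a layer, the log2 ratio of day 7 to intact nerve was 0.94 in perineurial cells, 0.50 in endoneurial cells and 0.01 in epineurial cells. Perineurial cells went from 116 cells with 9.61% to 241 cells with 18.5%. There 73 members were past 1.5-fold higher and 0 lower, where 25.2% of all features tested were past 1.5-fold higher and 31.5% lower. In endoneurial cells 38 members were past 1.5-fold higher and 1 lower, beside 21.9% and 26.3% of all features. In epineurial cells 3 were higher and 3 lower, beside 18.5% and 26.3%. The difference between the layers in these ratios was not tested, since each class of each library is 1 sample.

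Other values moved with the perineurial difference. The class at day 7 held 864 CPM of endoneurial, 756 CPM of perineurial and 1504 CPM of injury mesenchymal markers, and in intact nerve 756, 5421 and 512 CPM. The part of this in the ribosomal protein share was not tested. Intact perineurial cells had the highest mitochondrial share of the layer classes, 4.72%, and 40594 CPM of Malat1, where epineurial cells had 26268 CPM and endoneurial cells 47953 CPM. Markers of vascular smooth muscle summed to 1954 CPM in them, and 30 of the 116 cells carried these markers at 5 UMIs and 0.1% of their UMIs or more. Without the 40 intact perineurial cells that carried markers of any other cell type, and the like cells at day 7, the perineurial ratio was 0.90. Among cells of 5000 to 20000 UMIs it was 0.95, and among cells with Malat1 under 2% it was 0.72 (30 intact cells). The endoneurial ratio was 0.50 among cells of 5000 to 20000 UMIs and 0.24 with Malat1 under 2%. The epineurial ratio was below 0 in both, at -0.07 and -0.10.

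Day 21 was lower than day 7 in every class with at least 100 cells in both libraries. The log2 ratio was -0.59 in perineurial cells, -0.37 in dividing cells, -0.33 in endoneurial cells, -0.32 in MES_DIFF and -0.30 in epineurial cells. Without cells carrying markers of other cell types, the dividing ratio was -0.27, and the others were -0.59, -0.33, -0.34 and -0.30 in the same order. Dividing cells were at -0.27 with Malat1 under 2% and -0.29 among cells of 5000 to 20000 UMIs. In perineurial cells 45 members were past 1.5-fold lower and 0 higher, beside 17.0% and 25.0% of all features. Against intact nerve, however, perineurial cells at day 21 remained above, at 0.35, with 20 members past 1.5-fold higher and 4 lower beside 16.8% and 30.0% of all features. Endoneurial cells at day 21 were at 0.16 and epineurial cells at -0.29 against intact nerve, and the endoneurial ratio was -0.017 among cells with Malat1 under 2%. Perineurial cells made up 2069 of the 4111 annotated cells at day 21 and 116 of 1343 in intact nerve. With the 3 layer classes weighted alike, the ratio of day 21 to intact nerve was 0.029 in place of -0.14, so its sign follows the weight given to each class.

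**Figure D2:**
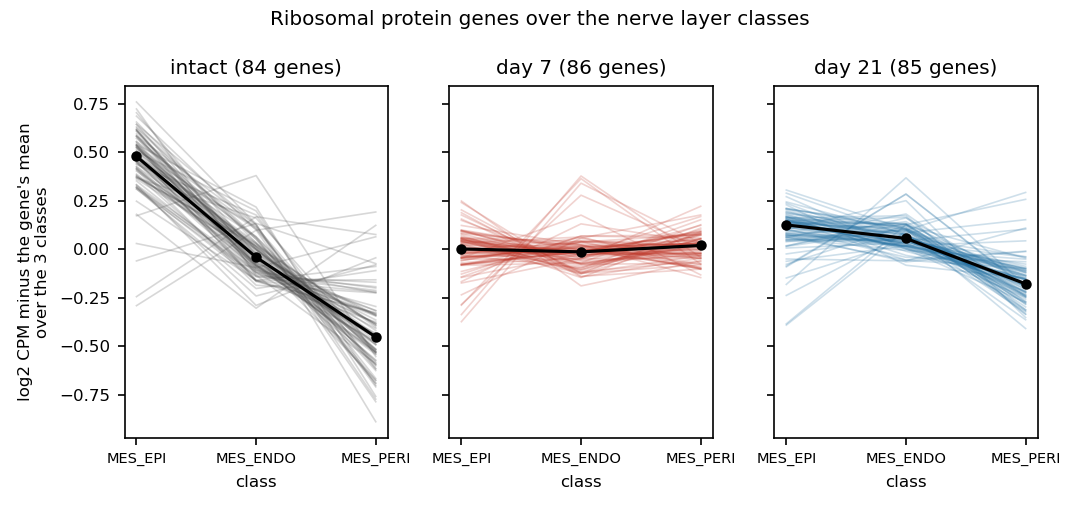
Each line is 1 ribosomal protein gene with at least 20 CPM in a layer class: its log2 CPM in the epineurial, endoneurial and perineurial class (x axis) minus its own mean over the 3 classes (y axis), with the median of the genes in black. Intact nerve shows a slope from epineurial down to perineurial, day 7 a flat bundle and day 21 a shallower slope.

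The layer pattern was shared by most members and not carried by a few. Of the 84 members with at least 20 CPM in intact nerve, 79 were highest in epineurial cells, 75 were lowest in perineurial cells and 73 followed the order epineurial, endoneurial, perineurial. Epineurial cells were past 1.5-fold above perineurial cells in 72 members and past it below in 0, beside 24.4% and 31.6% of all features. The median distance between a member's highest and lowest layer was 0.94 on the log2 scale in intact nerve, 0.15 at day 7 and 0.33 at day 21. In 80 of 84 members it was narrower than in intact nerve at day 7, and likewise in 80 of 84 at day 21. At day 7 the order epineurial, endoneurial, perineurial held for 13 of 86 members, and perineurial cells were the highest layer for 37. These counts of layer order and distance are for members only, with no share over all features beside them. The perineurial sum held 725278 UMIs in intact nerve, 3751538 at day 7 and 13375190 at day 21, and a smaller sum has more counting error.

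Rpsa had the widest spread over the intact layers, 1.65 on the log2 scale. It was at 2659 CPM in epineurial, 1719 CPM in endoneurial and 849 CPM in perineurial cells of intact nerve. At day 7 it was at 2954, 2792 and 2869 CPM, and at day 21 at 2495, 2313 and 1804 CPM. Its perineurial ratio of day 7 to intact nerve, 1.75, was the highest of all members in that class, followed by the stalk gene Rplp0 at 1.74 (1179 CPM to 3939 CPM). Rps28, a small subunit protein, had the widest layer spread at day 21, 0.71, with 4337 CPM in epineurial and 2646 CPM in perineurial cells. Rps4l had the widest spread at day 7, also 0.71, and there the endoneurial cells were highest, at 181 CPM against 111 CPM in epineurial cells.

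**Figure D3:**
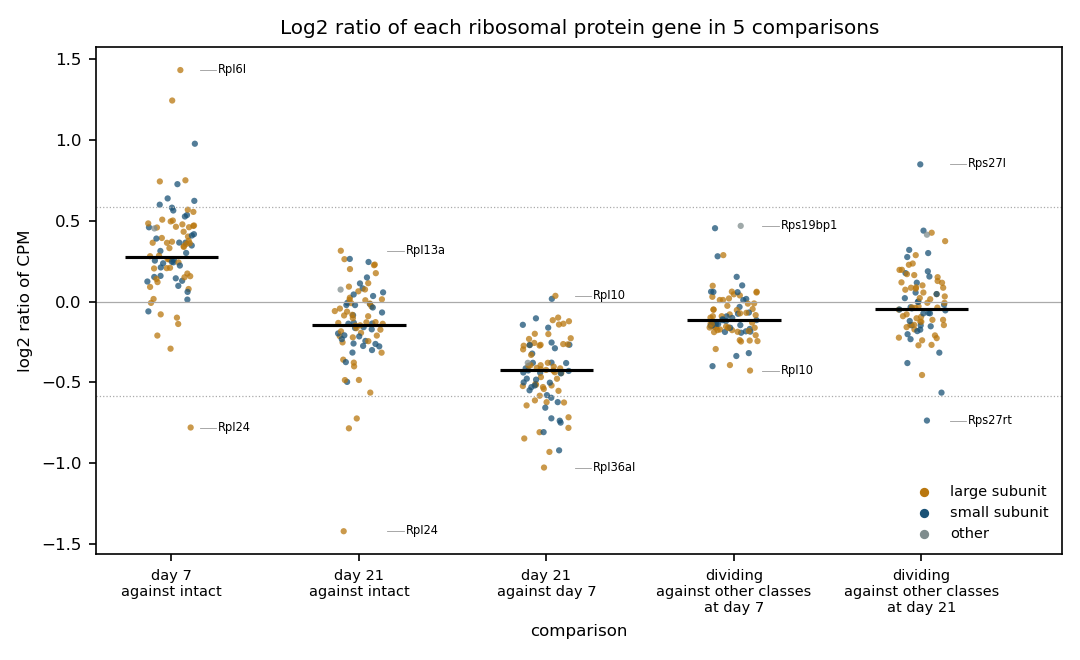
Log2 ratio of CPM (y axis) of each ribosomal protein gene with at least 20 CPM on the higher side, in 5 comparisons (x axis), coloured by subunit. Black bars are the ratio of the summed level, dotted lines 1.5-fold, and the highest and the lowest gene of each comparison are named. Rpl24 lies apart at the bottom of both comparisons with intact nerve, and Rps27l at the top in dividing cells at day 21.

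Gene by gene over all annotated cells, 86 members reached 20 CPM in a library. Day 7 held the highest value for 77 of them, intact nerve for Rps27, Rpl21, Rpl27a, Rpl23a, Rpl30, Rpl35a, Rpl24 and Rpl10, and day 21 for Rps27rt. This count of the highest library is for members only, with no share over all features beside it. The median member ratio was 0.34 at day 7 against intact nerve (78 of 86 above 0), -0.13 at day 21 against intact nerve (23 of 84 above 0) and -0.43 at day 21 against day 7 (2 of 86 above 0). Over all features of at least 20 CPM the medians were 0.07, 0.11 and 0.06, with 54.3%, 62.6% and 54.4% above 0. Single members seldom passed 1.5-fold. At day 7 against intact nerve 10 were higher and 2 lower of 90 tested, beside 22.4% and 28.4% of all features. For day 21 against intact nerve, 1 was higher and 6 lower, beside 19.6% and 19.3%. For day 21 against day 7, 0 were higher and 20 lower, beside 24.6% and 17.7%, and in cells of 5000 to 20000 UMIs 13 were lower. The share of members past 1.5-fold was below that of all features in each direction, except on the lower side of day 21 against day 7. With the layers weighted alike, 24 members were past 1.5-fold higher at day 7 against intact nerve, and with Malat1 under 2%, 5 were. Both comparisons with intact nerve share the intact library, and each also shares an injured library with the comparison of day 21 and day 7.

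Among stalk genes, Rplp0 was at 2494 CPM in intact nerve, 4178 CPM at day 7 and 2917 CPM at day 21. Its log2 ratio at day 7 was 0.74, past 1.5-fold, and among cells with Malat1 under 2% it was 0.52, not past it. Rplp2 was at 1338, 1896 and 1327 CPM, a ratio of 0.50, where the median member was at 0.34. Rplp1 hardly differed, at 2491, 2630 and 2418 CPM (0.08). The 3 genes of the same structure therefore did not keep step at day 7.

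On the small subunit, Rpsa was at 2097 CPM in intact nerve, 3138 CPM at day 7 and 2220 CPM at day 21, a ratio of 0.58 at day 7. Rps2, a core protein of the small subunit, was at 2371, 3693 and 2445 CPM and had a ratio of 0.64 at day 7. Rps27a, the ubiquitin fusion, was at 2608, 3215 and 2153 CPM. Its ratios against intact nerve were 0.30 at day 7 and -0.28 at day 21, where the summed level was at 0.28 and -0.14.

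Of the large subunit, Rpl41, the shortest of the ribosomal proteins, was at 3225 CPM in intact nerve, 5429 CPM at day 7 and 3159 CPM at day 21, a ratio of 0.75 at day 7. In cells of 5000 to 20000 UMIs it was 0.49, not past 1.5-fold. Rpl13a was at 74.8, 177 and 93.1 CPM and had ratios of 1.25 and 0.32 against intact nerve. The annotation places Gm45713 over its exons on the same strand, and that feature was at 0 counts in every library. Rpl4, at 443, 611 and 532 CPM, was among the 4 highest at day 21 against intact nerve (0.26).

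Rpl24, a large subunit protein at the interface with the small subunit, was lower at both times, whereas the set was higher at day 7 and lower by less at day 21. It was at 984 CPM in intact nerve, 573 CPM at day 7 and 367 CPM at day 21. Its log2 ratios were -0.78 and -1.42 against intact nerve, the lowest of all members of at least 20 CPM in both comparisons. In intact nerve it was at 861 CPM in endoneurial, 1146 CPM in epineurial and 696 CPM in perineurial cells. At day 7 the 3 layers were at 623, 538 and 624 CPM and at day 21 at 376, 374 and 342 CPM, so every layer was lower at each step. It was also the lowest member of each layer class in the comparisons of day 7 and of day 21 with intact nerve. Rpl24 lies at chr16:55966275-55971435 on the plus strand, and its exons overlap those of Gm28037, which was at 0 counts in all 3 libraries. Reads that fit both genes can be lost from the count, and whether that share differed between the libraries was not tested.

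**Figure D4:**
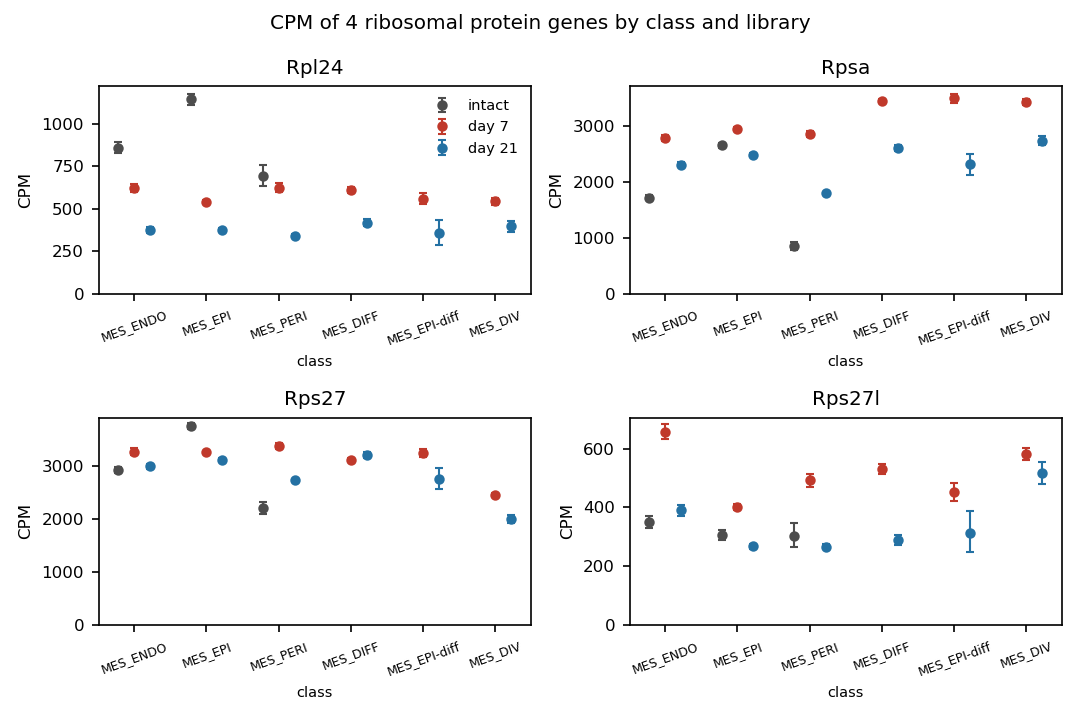
CPM (y axis, from 0) of Rpl24, Rpsa, Rps27 and Rps27l by class (x axis) and library (colour), over the summed UMIs of the class, with exact 95% Poisson intervals for counting error. Rpl24 is highest in intact nerve in each layer, and Rpsa is lowest in intact perineurial cells at 849 CPM. The dividing class is the lowest of its library in Rps27 at day 7 and day 21. In Rps27l it is the highest at day 21 (516 CPM) but below endoneurial cells at day 7 (583 against 658 CPM).

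Rpl35a and Rpl27a were also lower at both times than in intact nerve. Rpl35a was at 3166 CPM in intact nerve, 2588 CPM at day 7 and 2144 CPM at day 21 (-0.29 and -0.56 against intact nerve), and Rpl27a at 2143, 2001 and 1298 CPM (-0.10 and -0.72). Among the windows printed above, these 2 hold the longest pyrimidine runs and Rpl24 the shortest. Members not printed there include longer runs than that of Rpl35a, such as 21 bases in Rpl7a and 14 in Rpl4. A link between run length and the ratio of a member was not tested. Rpl30, at 2688, 2443 and 2036 CPM, was also among the 4 lowest at day 7 (-0.14). Rpl10, at 1983, 1715 and 1758 CPM, was among the 4 lowest at day 7 (-0.21) but the highest member at day 21 against day 7 (0.04). Rpl27 went from 799 CPM to 1026 and then 571 CPM and was among the 4 lowest at day 21 against day 7 (-0.85).

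The paralogs were compared with their core gene as a share of the pair's UMIs, which is a share of counts and not corrected for length. Rpl22l1 held 42.9% of the Rpl22 and Rpl22l1 UMIs in intact nerve, 44.7% at day 7 and 44.5% at day 21. Between endoneurial and epineurial cells the share of Rpl22l1 differed more than between the libraries. It was 52.2%, 53.3% and 51.4% in endoneurial cells and 36.9%, 40.8% and 42.3% in epineurial cells. Perineurial cells were at 39.9%, 45.6% and 45.9%. They differed more between intact nerve and day 7 than from epineurial cells in any library. MES_DIFF cells were at 45.9% at day 7 and 39.1% at day 21. Rps27l, also known as a p53 target, held 9.10% of its pair in intact nerve, 13.7% at day 7 and 9.25% at day 21. It was at 326, 494 and 297 CPM, while Rps27 was at 3258, 3126 and 2910 CPM. At day 7 against intact nerve the ratio of Rps27l was 0.60, past 1.5-fold, and that of Rps27 was -0.06. The Rps27l ratio was 0.56 without cells carrying other markers, 0.56 with Malat1 under 2% and 0.57 without the dividing class, not past 1.5-fold in these 3 settings.

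Rpl36al held 28.4% of the Rpl36a and Rpl36al UMIs in intact nerve, 27.9% at day 7 and 20.2% at day 21. It was at 409, 484 and 238 CPM, and its ratio of day 21 to day 7, -1.03, was the lowest of the set. An annotated gene, Gm49383, overlaps its exons and is not a feature of the matrices. Rps4l, annotated as a transcribed processed pseudogene of Rps4x, was at 78.0, 154 and 81.2 CPM, or 2.90%, 5.34% and 3.47% of its pair. Rpl6l, also annotated as a processed pseudogene, was at 7.76, 21.1 and 17.6 CPM and had the highest ratio at day 7, 1.43. Rpl7l1, which is known for work on pre-ribosomes, was at 45.9, 51.8 and 48.4 CPM. Reads that fit a core gene and a near-identical copy equally cannot be assigned by sequence, so the levels of such copies are uncertain.

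The other paralogs were at or near 0. Rpl39l, known from testis, had 13, 97 and 51 counts in intact nerve, day 7 and day 21, or 1.55, 2.68 and 1.51 CPM. Rpl3l, the striated muscle paralog of Rpl3, had 1, 1 and 3 counts, and Rpl10l, the testis paralog of Rpl10, had 0 in all. Their core genes stayed abundant: Rpl39 was at 3037, 3372 and 2338 CPM and Rpl3 at 1272, 1764 and 1437 CPM. Rps12l1, Rpl32l, Rps3a2 and Rps3a3 were also under 20 CPM in every library.

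Taken as a whole class, dividing cells did not have a larger share of UMIs in ribosomal protein genes than the other annotated cells together. At day 7 the 206 dividing cells had 17.4% and the other annotated cells 18.8%, a log2 ratio of -0.11. At day 21 the 119 dividing cells had 13.5% and the others 13.9%, a ratio of -0.043. Against single layers at day 21, dividing cells were at 0.14 to perineurial, -0.10 to endoneurial and -0.17 to epineurial cells. In cells of 5000 to 20000 UMIs the ratio to all others was -0.21 at day 7 and -0.13 at day 21. The median dividing cell did hold more ribosomal protein UMIs, 4135 against 3578.5 at day 7 and 1417 against 968 at day 21, and it also held more UMIs of all kinds. The median member ratio was -0.12 at day 7 and -0.03 at day 21, where features of at least 20 CPM had medians of 0.07 and 0.11. At day 7, 1 member was past 1.5-fold higher and 1 lower, beside 23.3% and 20.7% of all features, and at day 21, 2 and 3, beside 33.2% and 19.3%. The intact library held 7 dividing cells and was not compared. The classes were made by the authors from these same counts, so the comparison of classes is a description.

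The dividing class held cells with markers of other types. At day 7, 87 of its 206 cells carried such markers, 51 of them those of vascular smooth muscle and 33 those of Schwann cells. At day 21 it was 72 of 119, 58 of them with Schwann markers, whose sum was 1841 CPM in the class and from 221 to 304 CPM in the 5 other classes. Neutrophil and mast cell markers summed to 907 CPM in the dividing class and at most 2.33 CPM in the others, and pericyte markers to 593 CPM in the dividing class. Without cells carrying other markers on either side, the ratio was -0.13 at day 7 (119 dividing cells) and 0.030 at day 21 (47 dividing cells), so the sign at day 21 follows which cells are counted. The part of these other cells in the values of single genes was not tested beyond leaving them out.

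Within this near-level set, Rps27 and Rps27l parted. Rps27 was at 2455 CPM in dividing cells and 3237 CPM in the others at day 7 (-0.40), and at 1998 against 2952 CPM at day 21 (-0.56). Rps27l was at 583 against 480 CPM at day 7 (0.28) and at 516 against 287 CPM at day 21 (0.85). Rps27l thus held 19.2% of the pair in dividing cells against 12.9% in the others at day 7, and 20.5% against 8.85% at day 21. The exact 95% binomial intervals were 18.6% to 19.8% and 12.7% to 13.1% at day 7, and 19.2% to 21.9% and 8.68% to 9.02% at day 21. Dividing cells without other markers had 17.2% and 18.7%. In those cells the Rps27 ratios were -0.39 and -0.55 and the Rps27l ratios 0.11 and 0.71. Of the layers, endoneurial cells at day 7 came nearest in the share of the pair, with 16.7%. Their Rps27l was above that of dividing cells, at 658 CPM against 583 CPM. The 8 p53 targets fixed as a list, without Rps27l, had a median of -0.46 in dividing cells at day 7 and 0.00 at day 21, with 0 past 1.5-fold higher and 4 lower, and 2 and 2, beside 23.3% and 20.7%, and 33.2% and 19.3%, of all features. Without cells carrying other markers the medians were -0.30 and 0.25.

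Rpl10 was lower in dividing cells at both times, at 1324 against 1780 CPM at day 7 (-0.43) and 1299 against 1779 CPM at day 21 (-0.45). Rps27rt, a retrocopy of Rps27, was lower as well (-0.34 and -0.74), on 27.1 against 34.3 CPM and 20.2 against 34.3 CPM, and Rpl37rt was at -0.39 at day 7. Rps21 was at -0.38 at day 21. On the high side Rps4l was at 200 against 146 CPM at day 7 (0.45) and 0.16 at day 21, Rpl7l1 was at 0.29 at day 7, and Rpl36al was among the 4 highest at day 21 (314 against 234 CPM, 0.43). Rps19bp1, the binding protein, was higher at both times, 59.9 against 43.3 CPM (0.47) and 45.9 against 34.7 CPM (0.41).

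**Figure D5:**
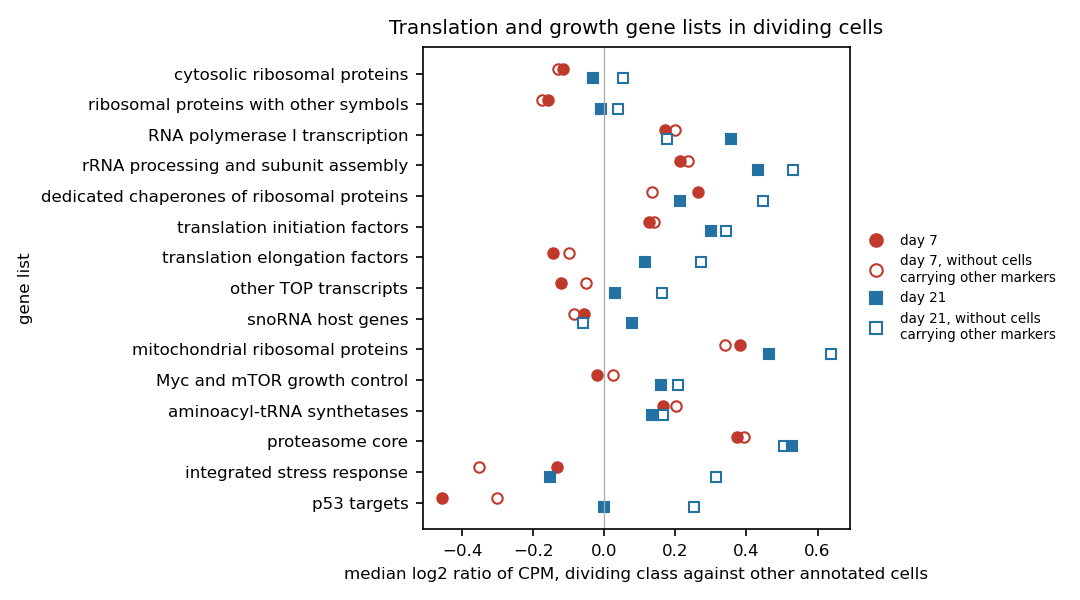
Median log2 ratio of CPM (x axis) of dividing cells against other annotated cells for the cytosolic ribosomal proteins and 14 lists of partner genes (y axis), at day 7 (red circles) and day 21 (blue squares). Open symbols leave out cells carrying markers of other cell types. Mitochondrial ribosomal proteins, proteasome and rRNA processing lie to the right of the cytosolic ribosomal proteins at both times.

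The partner genes of ribosome making had higher medians in dividing cells than the ribosomal proteins. Over all cells of the class, the share of rRNA processing genes past 1.5-fold was no larger than among all features. Of 47 measured genes for rRNA processing and subunit assembly, 6 were past 1.5-fold higher and 0 lower at day 7, and 14 higher and 2 lower at day 21, beside 23.3% and 33.2% of all features higher. Their medians were 0.21 and 0.43, against -0.12 and -0.03 for the ribosomal proteins. Without cells carrying other markers these were 0.24 and 0.53, against -0.13 and 0.05. The share of all features past 1.5-fold is not given for that setting. Nop56, a core protein of the snoRNPs that guide rRNA methylation, was at 71.1 CPM in dividing cells against 29.8 CPM at day 7 (1.26) and 103 against 35.7 CPM at day 21 (1.53). Dkc1, the pseudouridine synthase, was at 33.8 against 17.6 CPM at day 7 (0.94), and its partner Nhp2 at 121 against 75.4 CPM (0.68). Genes of RNA polymerase I transcription had medians of 0.17 and 0.36, and Polr1c, a subunit shared with RNA polymerase III, was at 1.05 at day 21.

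Mitochondrial ribosomal proteins, which build the separate ribosome of that organelle, differed from the cytosolic ones in the dividing class. Of 77 measured, 19 were past 1.5-fold higher and 0 lower at day 7, and 28 and 0 at day 21, close to the 23.3% and 33.2% of all features higher, but far from the 20.7% and 19.3% lower. Their medians were 0.38 and 0.46. Mrpl51 was at 204 against 92.3 CPM at day 7 (1.14) and 228 against 78.8 CPM at day 21 (1.54), and Mrpl18 at 1.23 and 1.48. Without cells carrying other markers, which left 119 and 47 dividing cells, the medians were 0.34 and 0.64. The proteasome core had medians of 0.37 and 0.53. Elongation factors stayed near the cytosolic set at day 7, with a median of -0.14, and Eef1a1, the main carrier of aminoacyl-tRNA and itself a pyrimidine-tract mRNA, was at -0.31 and -0.24. The 14 snoRNA host genes had medians of -0.06 and 0.08, with 2 past 1.5-fold higher and 3 lower at day 7 and 3 and 1 at day 21. Snhg18 was at -0.62 and -1.23, Gas5 at -0.61 at day 7 and Snhg6 at 0.67 at day 21.

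Between libraries the list medians at day 7 differed. At day 7 against intact nerve, 9 of 47 rRNA processing genes were past 1.5-fold higher and 1 lower (median 0.15), beside 22.4% and 28.4% of all features. Npm1, the nucleolar chaperone, was at 438 CPM in intact nerve and 933 CPM at day 7, a ratio of 1.09, and Nhp2 at 35.6 and 81.9 CPM (1.20). Of 7 elongation factors 4 were higher and 0 lower, with Eef1b2 at 597 and 1275 CPM (1.10) and Eef1g at 185 and 388 CPM (1.07), both of the complex that recharges Eef1a1. The proteasome core had 6 of 14 higher (median 0.57) and the mitochondrial ribosomal proteins 11 of 77 higher and 2 lower (median 0.34), where the cytosolic set had a median of 0.34. The chaperones that escort single ribosomal proteins to assembly had a median of 0.00, with 0 of 7 higher and 1 lower. Among cells with Malat1 under 2% of UMIs, the cytosolic median was 0.11 and that of the mitochondrial ribosomal proteins 0.27. In those cells rRNA processing was at 0.20, elongation factors at 0.32, the proteasome core at 0.49 and the chaperones at 0.25.

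Fau and Rack1, outside the symbol rule, differed from each other. Rack1, on the head of the small subunit, was at 588 CPM in intact nerve, 898 CPM at day 7 and 728 CPM at day 21 (0.61 and 0.31 against intact nerve). Fau was at 2619, 2683 and 2011 CPM (0.03 and -0.38).

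Barcodes without a class gave the same quantity in other cell types. Among those led by vascular smooth muscle markers the ribosomal protein share was 9.41% in intact nerve (283 barcodes), 19.5% at day 7 (243) and 12.5% at day 21 (147). Among those led by pericyte markers it was 9.35% (68), 17.9% (197) and 11.3% (271). Both were, like perineurial cells, low in intact nerve and higher at day 7 than at day 21. Endothelial barcodes were at 21.6% (39), 20.8% (105) and 16.2% (186), with no low value in intact nerve. Schwann barcodes were at 17.9% at day 7 (414) and 11.5% at day 21 (1799), and myeloid barcodes at 15.7% (349) and 15.2% (197), nearly level. These barcodes were grouped by markers of this work and were not filtered for doublets, and mitochondrial genes held 5.12% of UMIs in the intact smooth muscle group against 0.66% at day 7.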

How the data were processed

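The authors deposited 1 matrix of raw UMI counts for each library, made with Cell Ranger 6.1.2 per the file headers, and the submitters' processing notes also name Cell Ranger 3.0.2, Seurat 4.0.1, mm10 and GRCm38. Annotated cells and their classes came from the authors' deposited metadata. Of 7235 cells listed, 7234 were found. No source used here states how doublets were treated, and neither doublets nor free RNA were modelled. UMIs were summed over the cells of a library or class and scaled to 1e+06 (CPM). Log2 ratios add 0.5 counts to each sum. Features with more than 3 counts on either side were counted past 1.5-fold. Intervals are 95% (exact Poisson for CPM, exact binomial for shares and ratios) and cover counting error only. No test was made, as each group is 1 library. Members named were fixed by rule: the stalk genes, Rpsa, Rps27a, the paralog pairs, and in each comparison the 4 highest and 4 lowest of at least 20 CPM (2 within a class), with up to 4 genes from each partner list. Rps2 and Rps28, and the members listed as highest in intact nerve or under 20 CPM, were added after their values were seen. Some genes that the rule names are not reported here. The members and lists were chosen with earlier results of these data known. Gene positions are from GENCODE M21 and are printed for members of the same identifier version (80 of 93). Scripts ran in Python 3.11.15 with numpy 2.4.6, pandas 2.3.3 and scipy 1.17.1, and were tested on simulated counts. Alternatives covered cell weighting, scaling, every barcode, class mix, depth, the dividing class, the member list and the count minimum. Leaving out cells with markers of other types, or with high Malat1, was chosen after seeing the data.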

Additional observations from a re-analysis of the deposited data

Results flagged for a closer look

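The summed level of the ribosomal protein genes at day 21 against intact nerve was above 0 in endoneurial cells (log2 ratio 0.16) and perineurial cells (0.35) and below 0 in epineurial cells (-0.29). The classes moved in opposite directions under the same contrast, and with 1 library in each group the difference was not tested.

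Features named as pseudogenes of ribosomal protein genes (288 features with -ps in the symbol), which the comparisons leave out, had signal above the limit of a 0 count. They summed to 209 CPM in intact nerve, 350 CPM at day 7 and 317 CPM at day 21.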

How the results depend on the processing

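With 1 library in each group, no replicate could be left out. No paired analysis was possible because each group holds 1 library. The summed level at day 7 against intact nerve (log2 ratio 0.28) was 0.30 with each cell weighted alike, 0.32 scaled to UMIs outside ribosomal protein and mitochondrial genes, 0.36 over every barcode, 0.43 as an equal mean of the 3 layer classes, 0.18 in cells of 5000 to 20000 UMIs, 0.29 without the dividing class, 0.26 without cells carrying other markers and 0.055 with Malat1 under 2% of UMIs. For day 21 against intact nerve (-0.14) the values in that order were -0.15, -0.16, -0.11, 0.029 (reversed), -0.19, then -0.16 without cells carrying other markers and -0.29 with low Malat1. For day 21 against day 7 (-0.42) they were -0.45, -0.49, -0.47, -0.40, -0.36, -0.44 without the dividing class, -0.42 without paralogs and Rps19bp1, -0.42 without cells carrying other markers and -0.35 with low Malat1.

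For dividing cells at day 7 (-0.11) they were -0.11 weighted alike, -0.14 under the other scaling, -0.21 in the depth window, -0.082 against the equal mean of layers, -0.13 without cells carrying other markers and -0.12 with low Malat1. For day 21 (-0.043) they were -0.072, -0.057, -0.13, -0.049, 0.030 (reversed) and -0.034. Within classes, endoneurial cells at day 21 against intact nerve reversed to -0.017 with low Malat1, and epineurial cells at day 7 to -0.10 with low Malat1 and -0.068 in the depth window.

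Members past 1.5-fold higher at day 7 (10) were 24 under the equal mean of layers, 6 in the depth window, 6 without paralogs and 5 with low Malat1. Those lower (2) were 1 without paralogs and 1 among members of at least 50 counts. Those higher at day 21 against intact nerve (1) were 0 without paralogs and 2 with low Malat1, and those lower (6) were 3 under the equal mean and 3 at 50 counts. At day 21 against day 7 those higher (0) were 1 under the equal mean, in the depth window and with low Malat1, and those lower (20) were 13 in the depth window and with low Malat1. Of the values for single members, 393 moved past their counting interval, 531 did not, and 0 of those past 1.5-fold changed sign. The cause of these shifts was not tested. Depth limits the members under 20 CPM.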
